A study of Homo sapiens with 15 samples.

Results

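The cytosolic heat shock chaperones described here are 10 genes taken by name from the 47634 genes in each count table: HSPA1A, HSPA1B, HSPA8, HSPH1, DNAJB1, HSP90AA1, HSP90AB1, HSPB1, BAG3 and HSF1. Their transcripts were counted by QuantSeq, which sequences a short stretch near the 3′ end of polyadenylated RNA, in 15 libraries of IGROV-CP20 cells. IGROV-CP20 is a human ovarian cancer line selected for resistance to cisplatin, a platinum drug that binds DNA, and the line is the only source of RNA in the study. Cells were left untreated, received 50 µM cisplatin for 24 h, or received 10 µM Telmisartan (an angiotensin receptor blocker), Tranilast (an anti-allergic drug) or Amphotericin B (an antifungal drug that binds sterols) for 24 h and then the same dose of cisplatin for another 24 h, with 3 biological replicates in each of the 5 conditions. A drug without cisplatin was not analysed here, so that each drug was compared with cisplatin alone, and a drug that changed chaperone transcripts by itself could not be told apart from one that changed the response to cisplatin.

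Heat shock chaperones bind unfolded stretches of other proteins and help them to fold, to stay soluble or to be handed over for degradation. HSP70 proteins work in cycles of ATP hydrolysis that HSP40 proteins start and that HSP110 and BAG proteins, as nucleotide exchange factors, reset, while HSP90 receives partly folded clients such as kinases and steroid receptors. Many of these genes are transcribed by heat shock factor 1, which is held inactive by chaperones until unfolded proteins draw them away, and tumor cells are known for leaning on this system.

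Of the 10 genes, HSPA8, DNAJB1 and BAG3 rose after cisplatin alone, by 3.45-fold, 2.66-fold and 2.49-fold. With Tranilast before cisplatin, HSPA8 and BAG3 were lower than with cisplatin alone, by 2.64-fold and 1.80-fold. With Amphotericin B before cisplatin, HSPA8 rose a further 2.31-fold above cisplatin alone, while with Telmisartan none of the 7 genes tested was called. Of all genes, 44.7% were called with cisplatin over untreated cells. Over cisplatin alone, 22.2% were called with Tranilast, 13.2% with Amphotericin B and 0% with Telmisartan. Of 28 other ways to process the data, 0 ended a call with cisplatin, 7 and 5 ended those of HSPA8 and BAG3 with Tranilast, and 14 ended that of HSPA8 with Amphotericin B. HSPA1A and HSPA1B, the stress-inducible HSP70 pair, had no count in any library, and HSPB1 had too few for a test, which left 7 genes tested. Small nucleolar RNA genes overlap HSPA8 on the same strand, and their part in its counts was not tested. These folds come from edgeR's quasi-likelihood model fitted to all 15 libraries and 11113 genes, and a gene was called where its Benjamini-Hochberg adjusted p, taken over all genes of a comparison, was under 0.05.

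Libraries held between 1510620 and 3517041 counts. All levels below are in CPM, the usual unit of counts scaled to library size, here with TMM factors. Among 10 markers of ovarian carcinoma epithelium, KRT18, KRT8 and EPCAM had mean levels of 133, 16.1 and 25.2 CPM, whereas PAX8, KRT7, MUC16, WT1 and MSLN had means under 1 CPM. CDH1 and KRT19 had means of 6.19 and 2.89 CPM. The markers were thus mixed, and the ovarian origin rests on the name of the line. The endothelial genes VWF and CDH5 and the T cell gene CD3E were at 0 in all libraries, while PTPRC, a leukocyte gene, ranged from 2.45 to 75.4 CPM with its high values in untreated cells, and COL1A1 from 6.38 to 32.7 CPM. The 5 leukocyte genes summed to between 65.0 and 77.6 CPM in untreated libraries and to between 4.77 and 22.8 CPM in all others, and their part in the results was not tested.

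A pair of libraries stood apart, being less like their own condition than another by the widest gap. The library labelled cisplatin replicate 1 had a mean correlation of log2 CPM over genes of 0.904 with the other cisplatin libraries and of 0.942 with the Amphotericin B libraries. The library labelled Telmisartan replicate 3 had a mean correlation of 0.92 with the other Telmisartan libraries and of 0.972 with the Tranilast libraries. By the same measure, cisplatin replicate 3 was at 0.929 with its own condition, 0.945 with Tranilast and 0.94 with Telmisartan, and Telmisartan replicates 1 and 2 were at 0.944 and 0.941 with their own condition and at 0.945 with Amphotericin B. For the pair that stood apart, a library that carries the label of another condition and a replicate that differed cannot be told apart here. The share of counts on mitochondrial ribosomal RNA separated the pair from its own condition: it was 13.7% in cisplatin replicate 1 against 5.61% and 3.41% in replicates 2 and 3, and 3.61% in Telmisartan replicate 3 against 10.8% and 12.9%. Elsewhere it ranged from 1.79% to 2.20% in untreated cells, from 2.10% to 2.53% with Tranilast and from 12.3% to 14.8% with Amphotericin B. Results that rest on these libraries are given with and without them, a comparison chosen after the data had been seen. Leaving them out keeps replicates 2 and 3 of cisplatin and replicates 1 and 2 of Telmisartan. Because the pair was picked for its likeness to other conditions, this can widen contrasts and narrow the spread by itself. Between Telmisartan and cisplatin, calls over all genes went from 0% to 24.9%. Calls gained in that fit are therefore not independent support.

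**Figure D1:**
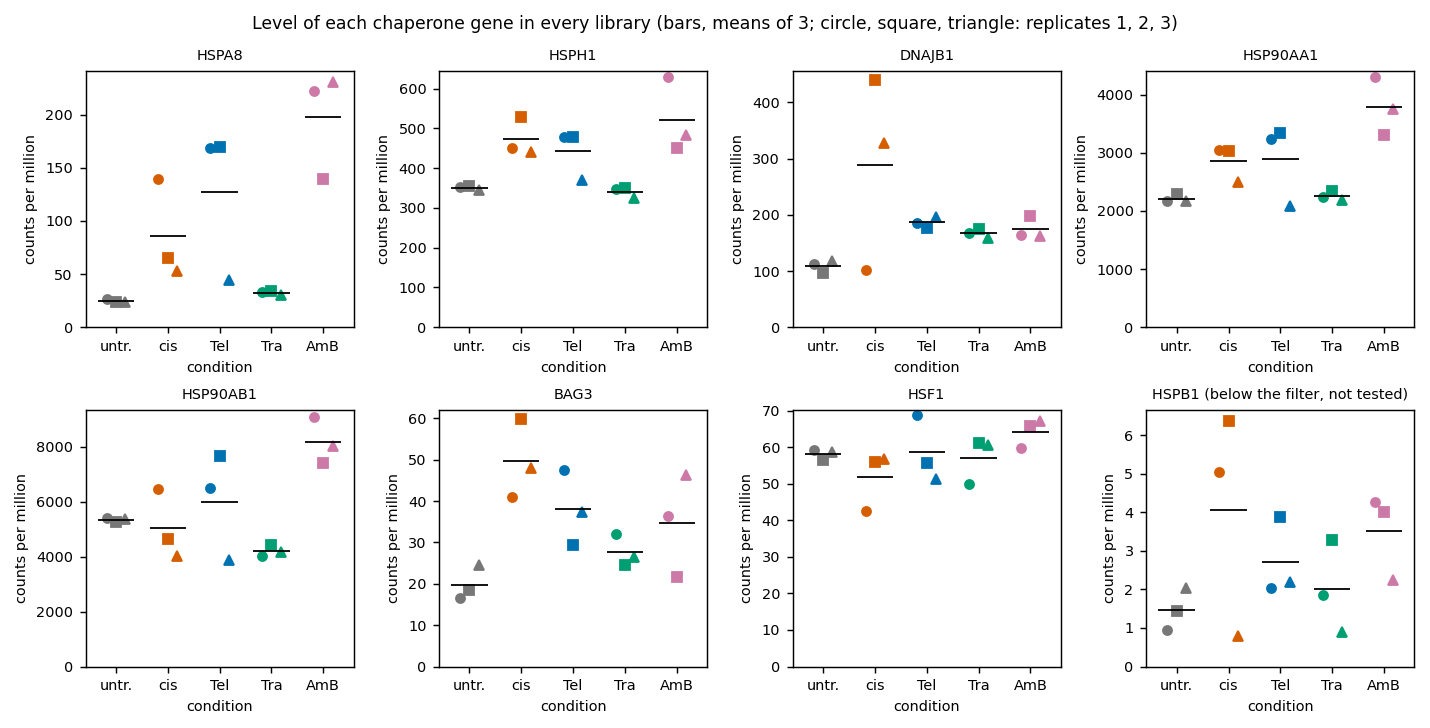
Level of HSPA8, HSPH1, DNAJB1, HSP90AA1, HSP90AB1, BAG3, HSF1 and HSPB1 in CPM (vertical axes, from 0) in each library of the 5 conditions (horizontal axes: untreated, cisplatin alone, and Telmisartan, Tranilast or Amphotericin B followed by cisplatin), with circles, squares and triangles for replicates 1, 2 and 3 and bars for means of 3. The DNAJB1 panel shows cisplatin replicate 1 at 102 CPM among the untreated libraries, and the HSPA8 panel shows it at 139 CPM beside the lowest Amphotericin B library.

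Promoters of 9 members were found in RefSeq's table of start sites (GRCh38.p14), each spanning 250 bases before to 50 bases after a start site. HSF1 was the exception. The window of each was searched for the heat shock element, the repeat of GAA and TTC that heat shock factors bind, written as the paired repeats GAANNTTC and TTCNNGAA, which read the same on both strands, and as the triple repeats GAANNTTCNNGAA and TTCNNGAANNTTC. A triple repeat contains overlapping paired repeats, which were counted one by one. A paired repeat was present in 8 (57.1%) of the 14 windows of members, which belong to 7 of the 9 genes, and a triple repeat in 3 (21.4%), beside 13.5% and 0.49% of all 35116 promoter windows in the table. Printed here are the 3 genes that rose with cisplatin, for which the presence and absence of the repeat differed, and HSP90AA1 as a member with a triple repeat that was not called in that comparison. Capitals mark the paired repeats.
HSPA8, chr11:123062087-123062386, minus strand: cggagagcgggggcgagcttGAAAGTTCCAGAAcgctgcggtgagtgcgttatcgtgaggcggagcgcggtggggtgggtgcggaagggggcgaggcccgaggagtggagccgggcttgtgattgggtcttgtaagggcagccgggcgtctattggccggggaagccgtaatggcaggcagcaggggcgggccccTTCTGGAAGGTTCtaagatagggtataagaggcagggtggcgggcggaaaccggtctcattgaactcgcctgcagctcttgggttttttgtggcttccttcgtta
DNAJB1, chr19:14518348-14518647, minus strand: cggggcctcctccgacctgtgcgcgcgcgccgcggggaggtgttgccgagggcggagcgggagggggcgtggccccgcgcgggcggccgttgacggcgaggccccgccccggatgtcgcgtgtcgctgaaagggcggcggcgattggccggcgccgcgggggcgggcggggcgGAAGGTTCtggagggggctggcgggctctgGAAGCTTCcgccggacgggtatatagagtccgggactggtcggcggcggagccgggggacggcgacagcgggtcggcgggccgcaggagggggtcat
BAG3, chr10:119651130-119651429, plus strand: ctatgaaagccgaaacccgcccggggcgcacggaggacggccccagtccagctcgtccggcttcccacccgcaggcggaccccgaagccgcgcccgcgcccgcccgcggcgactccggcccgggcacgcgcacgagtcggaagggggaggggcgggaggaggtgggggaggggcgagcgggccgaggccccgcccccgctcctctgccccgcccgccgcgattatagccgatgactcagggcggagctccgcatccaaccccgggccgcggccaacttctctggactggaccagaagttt
HSP90AA1, chr14:102086995-102087294, minus strand: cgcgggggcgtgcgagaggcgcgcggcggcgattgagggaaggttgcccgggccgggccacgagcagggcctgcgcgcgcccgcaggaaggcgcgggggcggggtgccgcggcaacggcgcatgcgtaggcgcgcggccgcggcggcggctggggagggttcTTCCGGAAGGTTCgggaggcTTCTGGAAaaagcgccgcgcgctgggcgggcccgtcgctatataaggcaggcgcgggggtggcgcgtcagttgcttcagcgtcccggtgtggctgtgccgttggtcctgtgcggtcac

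In the HSPA8 window, triple repeats began 230 and 55 bases before the start site. The DNAJB1 window shown, from the start site with the most matches of 3, had paired repeats beginning 77 and 47 bases before it and no triple repeat. HSP90AA1 had a triple repeat beginning 88 bases before this start site and no match at its other one. No repeat of these letters was found in the windows of BAG3 and HSPH1. HSP90AB1 had 4 paired repeats at 1 of 3 start sites, while HSPA1A, HSPA1B and HSPB1 had 1 each. A match is a stretch of letters, and binding of heat shock factors was not measured.

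HSPA1A (ENSG00000204389, chr6:31815464-31817946, plus strand, GRCh38 in GENCODE 29) and HSPA1B (ENSG00000204388, chr6:31827735-31830255) encode nearly identical inducible HSP70 proteins and are single-exon genes within the major histocompatibility complex. Both had 0 counts in all 15 libraries, so that nothing can be said about their response to cisplatin or the drugs. A count of 0 allows up to 3 counts, which is between 8.53e-05% and 0.000199% of a library, an upper limit that covers counting error only. The zeros did not stop at this pair. Of 47 protein-coding genes within 250 kb on either side of HSPA1A, 31 (66.0%) were at 0 in every library, among them HSPA1L, the testis HSP70 between LSM2 and HSPA1A, compared with 23.7% of the other protein-coding genes of chromosome 6 and 19.7% of all protein-coding genes in the tables. Housekeeping neighbours were low as well: LSM2, a subunit of the U6 snRNA ring, had 2 counts and NEU1, a lysosomal sialidase, had 1 over all libraries, and the highest was NELFE with 567. How reads with more than 1 match were counted is not given in the sources used here. Over the last 500 bases of the transcripts, 75 of 426 windows of 75 bases (the read length) in HSPA1A were shared exactly with another gene, and 0 of 426 in HSPA1B. This search covered exact matches to transcripts of GENCODE 29 only. It cannot show that reads of HSPA1B had a single match in the reference used for the counts. The part of read assignment in these zeros was not tested, so the absence of counts does not show an absence of HSPA1A or HSPA1B transcripts.

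**Figure D2:**
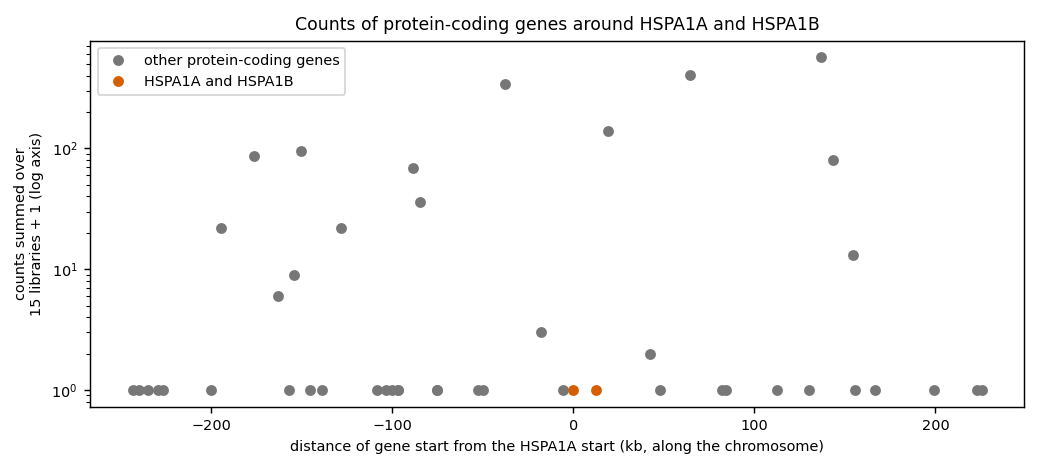
Counts summed over the 15 libraries plus 1 (vertical log axis) for protein-coding genes around HSPA1A against the distance of their start from the HSPA1A start in kb (horizontal axis), with HSPA1A and HSPA1B in orange. Both members lie on the floor together with most of the 47 genes, 31 of which had no count.

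HSPA8 (ENSG00000109971, chr11:123057489-123063230, minus strand) encodes HSC70, the HSP70 made in all cells, which also brings substrates to the lysosome in chaperone-mediated autophagy. Its level in untreated cells was 26.8, 23.3 and 24.2 CPM, and with cisplatin alone it was 139, 65.2 and 53.2 CPM. With Tranilast it was 33.1, 33.8 and 30.0 CPM, with Telmisartan 169, 169.6 and 44.6 CPM, and with Amphotericin B 222, 139.6 and 231 CPM. Each cisplatin library exceeded each untreated one, the Tranilast libraries lay between both without overlap, and the Amphotericin B libraries exceeded those with cisplatin alone, the closest pair being the Amphotericin B library at 139.56 CPM and cisplatin replicate 1 at 139.44 CPM. The low Telmisartan value came from the library that stood apart.

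The mean of HSPA8 rose from 24.8 ± 1.81 CPM (SD, n = 3) in untreated cells to 86.0 ± 46.7 CPM with cisplatin, a log2 fold change of 1.79 ± 0.41 (SE; edgeR adjusted p = 0.00212). The call held under all 28 alternatives, with a log2 change of 1.25 when both libraries that stood apart were left out. With Tranilast the mean was 32.3 ± 2.02 CPM, which was lower than with cisplatin by a log2 change of -1.40 ± 0.40 (edgeR adjusted p = 0.0197). This call was lost in 4 of 15 fits with 1 library left out, namely cisplatin replicate 1 (log2 change -0.86, edgeR adjusted p = 0.105) and each Tranilast library in turn, but was kept without both libraries that stood apart (log2 change -0.87, edgeR adjusted p = 0.000621). Amphotericin B gave 197 ± 50.4 CPM, higher than cisplatin alone by 1.21 ± 0.39 on the log2 scale (edgeR adjusted p = 0.0473), which 10 of the 15 fits with 1 library left out did not call (edgeR adjusted p from 0.0615 to 0.191). Without both libraries that stood apart, HSPA8 was higher with Amphotericin B by 1.74 (edgeR adjusted p = 1.19e-08) and with Telmisartan by 1.52 (edgeR adjusted p = 2.54e-06), whereas the difference with Telmisartan over all libraries was 0.57 ± 0.39 (edgeR adjusted p = 0.654). Tables held 17 HSPA8 pseudogenes by name, with 28 counts in all against 2718 on HSPA8. The small nucleolar RNA genes SNORD14C, SNORD14D and SNORD14E overlap HSPA8 on the same strand and were not among the genes counted. Their part in the counts of HSPA8 was not tested, so its folds cannot be credited to the HSC70 messenger alone. Over the libraries HSPA8 ran most closely with RMRP, the RNA of an endonuclease, and MT-TF, a transfer RNA (correlations 0.987).

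HSPH1 (ENSG00000120694, chr13:31134974-31162388, minus strand) encodes HSP110, an exchange factor of HSP70 that takes part in dissolving aggregates. In untreated cells it was at 352, 355 and 346 CPM and with cisplatin at 451, 529 and 441 CPM. With Telmisartan it was at 479, 479 and 370.2 CPM, with Tranilast at 348, 349 and 325 CPM, and with Amphotericin B at 630.0, 449.95 and 484 CPM. The cisplatin libraries all lay above the untreated and the Tranilast libraries, and those with Amphotericin B reached from within the cisplatin range to above it. Despite this separation the increase with cisplatin (log2 change 0.43 ± 0.17, edgeR adjusted p = 0.0523) and the difference with Tranilast (-0.48 ± 0.18, edgeR adjusted p = 0.0583) missed the threshold. Both were called by DESeq2 (log2 changes 0.49 and -0.53, adjusted p = 0.00957 and 0.00893) and both were called by edgeR without the 2 libraries that stood apart (0.47 and -0.51, adjusted p = 0.00582 and 0.00516). The increase with cisplatin stayed uncalled under 19 of the 28 alternatives, and the difference with Tranilast under 21.

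DNAJB1 (ENSG00000132002, chr19:14514770-14529770, minus strand) encodes the HSP40 protein that starts the HSP70 cycle in the stress response. Untreated libraries had 113, 97.3 and 117 CPM, and libraries with cisplatin alone had 102, 439.5 and 327 CPM. Telmisartan gave 186, 177 and 196 CPM, Tranilast 168, 175 and 159.6 CPM, and Amphotericin B 164, 197 and 163 CPM. Cisplatin replicate 1 was within the untreated range and replicates 2 and 3 had the highest values of the 15 libraries, so that the groups overlapped, whereas the 9 libraries with a drug and cisplatin lay together, all above the untreated ones. The increase from 109 ± 10.5 to 289.6 ± 172 CPM with cisplatin had a log2 change of 1.41 ± 0.32 (edgeR adjusted p = 0.00192) and was called under all 28 alternatives, with 1.81 when both libraries that stood apart were left out. Compared with cisplatin alone, DNAJB1 differed by -0.79 ± 0.31 with Tranilast, by -0.64 ± 0.31 with Telmisartan and by -0.73 ± 0.32 with Amphotericin B (log2; edgeR adjusted p = 0.0756, 0.495 and 0.125), none of which passed the test. Without cisplatin replicate 1 alone they were -1.18, -1.0 and -1.09 and all were called (edgeR adjusted p = 0.00021, 0.00717 and 0.0002). Each drug also left DNAJB1 above untreated cells without overlap, by 0.62 ± 0.31, 0.77 ± 0.32 and 0.68 ± 0.32 in the same order of drugs, which missed the threshold over all libraries (edgeR adjusted p = 0.271, 0.0732 and 0.0974) and passed it without both libraries that stood apart (edgeR adjusted p = 0.000701, 0.000176 and 0.000152). TECR on the opposite strand overlaps DNAJB1, with 222 counts against 6948, and whether counting used the strand is not given in the sources used here.

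HSP90AA1 (ENSG00000080824, chr14:102080738-102139699, minus strand) encodes the stress-inducible cytosolic HSP90. It had 2164, 2283 and 2168 CPM in untreated cells and 3040.2, 3025 and 2491 CPM with cisplatin. Levels were 3242, 3331 and 2081 CPM with Telmisartan, 2237, 2341 and 2188 CPM with Tranilast, and 4299, 3307 and 3758 CPM with Amphotericin B. The cisplatin libraries exceeded all untreated and Tranilast libraries and were exceeded by all Amphotericin B libraries. The differences were moderate and uncalled against cisplatin: 0.37 ± 0.22 for cisplatin over untreated, -0.34 ± 0.22 with Tranilast, 0.02 ± 0.22 with Telmisartan and 0.41 ± 0.22 with Amphotericin B (log2; edgeR adjusted p = 0.173, 0.270, 0.987 and 0.205). Without both libraries that stood apart, the rise with cisplatin (0.32, edgeR adjusted p = 0.0460) and that with Amphotericin B (0.45, edgeR adjusted p = 0.00968) were called. Scaled by library size only, the difference with Tranilast turned positive (0.13), where the median of all genes moved from 0.02 to 0.46. With Amphotericin B the gene was higher than in untreated cells by 0.78 ± 0.22 (edgeR adjusted p = 0.0086).

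HSP90AB1 (ENSG00000096384, chr6:44246166-44253888, plus strand) encodes the HSP90 made constantly in all cells. Untreated libraries had 5395, 5280.3 and 5381 CPM, and those with cisplatin 6474, 4634.5 and 4024 CPM. With Telmisartan it was at 6505, 7654 and 3874 CPM, with Tranilast at 4036, 4422 and 4170 CPM, and with Amphotericin B at 9086, 7405 and 8044 CPM. Cisplatin libraries lay on both sides of the untreated ones, replicate 1 being the only one above, while the Amphotericin B libraries were all above the cisplatin and untreated libraries. The change with cisplatin was -0.09 ± 0.26 (edgeR adjusted p = 0.813), which turned to 0.05 when cisplatin replicate 3 was left out. Relative to cisplatin, HSP90AB1 differed by -0.26 ± 0.26 with Tranilast, 0.25 ± 0.26 with Telmisartan and 0.70 ± 0.26 with Amphotericin B (edgeR adjusted p = 0.496, 0.795 and 0.0827). Leaving out both libraries that stood apart gave 0.71 with Telmisartan and 0.91 with Amphotericin B, both called (edgeR adjusted p = 0.00106 and 6.47e-06). The difference with Tranilast was positive when scaled by library size only (0.24) and when the share of mitochondrial rRNA was a term (0.20). HSP90AB3P, a pseudogene, was listed with 3911 counts against 206580 on HSP90AB1, and none of the 75-base windows at the end of HSP90AB1 transcripts was shared with another gene.

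HSPB1 (ENSG00000106211, chr7:76302544-76304295, plus strand) encodes HSP27, a small heat shock protein that holds unfolded proteins without using ATP. Between 2 and 13 reads per library were counted on it, which is 0.956, 1.44 and 2.04 CPM in untreated cells and 5.04, 6.38 and 0.794 CPM with cisplatin. It ranged from 2.04 to 3.87 CPM with Telmisartan, from 0.903 to 3.27 CPM with Tranilast and from 2.24 to 4.27 CPM with Amphotericin B. Untreated libraries lay just below those with Telmisartan or Amphotericin B, all other pairs of conditions overlapped, and the gene was below the filter on low counts. In its last 500 bases 66 of 426 windows were identical to another gene, mainly its pseudogene HSPB1P1, which had 0 counts over all libraries. Whether reads that match both were left out was not tested.

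BAG3 (ENSG00000151929, chr10:119651370-119677819, plus strand) encodes a co-chaperone that links HSP70 and small heat shock proteins to autophagy. It had 16.6, 18.4 and 24.4 CPM in untreated cells and 40.9, 59.8 and 48.1 CPM with cisplatin. Levels were 47.5, 29.3 and 37.4 CPM with Telmisartan, 32.0, 24.5 and 26.4 CPM with Tranilast, and 36.3, 21.7 and 46.2 CPM with Amphotericin B. The cisplatin libraries exceeded the untreated and Tranilast libraries, which lay next to each other without overlap, and the Amphotericin B libraries were spread from within the untreated to within the cisplatin range. The mean rose from 19.8 ± 4.11 to 49.6 ± 9.58 CPM with cisplatin (log2 change 1.32 ± 0.26, edgeR adjusted p = 0.000706), a call held under all 28 alternatives. It was 27.6 ± 3.89 CPM with Tranilast (log2 change -0.85 ± 0.26 from cisplatin, edgeR adjusted p = 0.0249). That call was lost without cisplatin replicate 2, Tranilast replicate 2 or Tranilast replicate 3 (edgeR adjusted p = 0.118, 0.104 and 0.0932) and stood without both libraries that stood apart (-0.97, edgeR adjusted p = 0.00115). The differences with Telmisartan (-0.38 ± 0.26) and Amphotericin B (-0.51 ± 0.27) were not called over all libraries (edgeR adjusted p = 0.646 and 0.200), although the second was called without both libraries that stood apart (-0.63, edgeR adjusted p = 0.0379).

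HSF1 (ENSG00000185122, chr8:144291591-144314722, plus strand) encodes the factor that transcribes these genes and is mostly controlled as a protein. Its level was 59.3, 56.4 and 58.8 CPM in untreated cells and 42.6, 55.9 and 56.8 CPM with cisplatin. It was 68.9, 55.8 and 51.2 CPM with Telmisartan, 49.9, 61.1 and 60.5 CPM with Tranilast, and 59.7, 65.8 and 67.1 CPM with Amphotericin B. All libraries lay between 42.6 and 68.9 CPM, and the Amphotericin B libraries lay above those of untreated cells and of cisplatin alone. Its log2 changes were -0.16 ± 0.18 for cisplatin over untreated and 0.14 ± 0.18, 0.17 ± 0.18 and 0.31 ± 0.18 for Tranilast, Telmisartan and Amphotericin B over cisplatin (edgeR adjusted p = 0.473, 0.598, 0.798 and 0.266), and none was called under any of the 28 alternatives. DGAT1 overlaps HSF1 on the opposite strand, with 587 counts against 2250, and 65 of 426 windows at the end of HSF1 were shared with another gene.

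Cisplatin alone was compared with untreated cells to ask how the resistant cells respond to the platinum drug. HSPA8, DNAJB1 and BAG3 rose, and none of the 7 tested members fell, although HSP90AB1 was called lower when scaled by library size only (-0.49, edgeR adjusted p = 0.00903) and with the share of mitochondrial rRNA as a term (-0.56, edgeR adjusted p = 0.00308). The 3 called members stood against 44.7% of all genes called in either direction, and against 21.1% called higher, so the share of members called was close to that of all genes in either direction. The median log2 change of the 7 was 0.43, beside -0.01 over all genes. With both libraries that stood apart left out, HSPH1 and HSP90AA1 joined them, which made 5 of 7 where 55.4% of all genes were called. In bulk RNA a smaller number of cells of a kind and less of a transcript in each cell cannot be told apart.

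**Figure D3:**
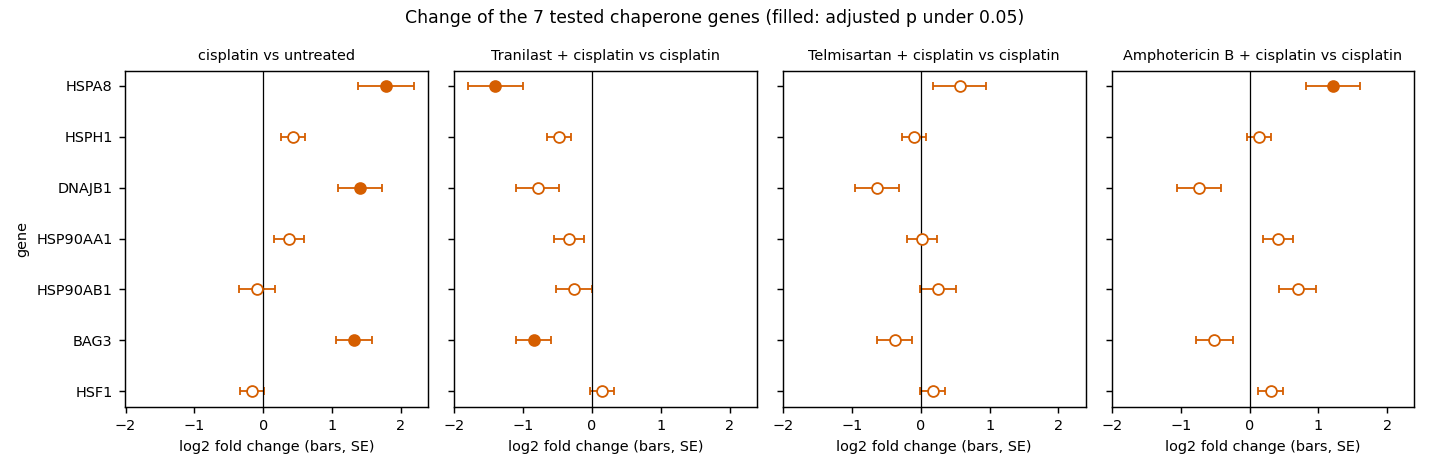
Log2 fold change (horizontal axes) of the 7 tested chaperone genes in 4 comparisons, with bars for standard errors and filled points where edgeR's adjusted p was under 0.05. HSPA8 was called in 3 panels, at 1.79 for cisplatin over untreated, -1.40 with Tranilast and 1.21 with Amphotericin B over cisplatin, and no gene was called with Telmisartan.

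The question put to each drug was how cells made more sensitive to cisplatin differ from cells given cisplatin alone. All 3 contrasts share the cisplatin libraries, so that a high or low cisplatin library moves them together. With Tranilast, HSPA8 and BAG3 were lower and none was higher, 2 of 7 where 22.2% of all genes were called, and the median change was -0.48 beside 0.02 over all genes. Scaled by library size only, neither was called, HSPA8 being at -0.86 and BAG3 at -0.41 where the median of all genes was at 0.46. Leaving out both libraries that stood apart made it 4 of 7, HSPH1 and DNAJB1 being lower as well, where 36.3% of all genes were called. With Telmisartan none of the 7 was called by edgeR, 0 had an unadjusted p under 0.05, and the likelihood ratio test, DESeq2 and limma-voom called none, beside 0% of all genes called in this comparison. Without both libraries that stood apart HSPA8 and HSP90AB1 were higher and DNAJB1 lower with Telmisartan, 3 of 7 where 24.9% of all genes were called. With Amphotericin B HSPA8 was higher, 1 of 7 where 13.2% of all genes were called. This call was lost under 14 of the 28 alternatives, and HSP90AB1 was called higher under 6 of them. Amphotericin B, without both libraries that stood apart, raised HSPA8, HSP90AA1 and HSP90AB1 and left DNAJB1 and BAG3 lower, 5 of 7 where 43.4% of all genes were called.

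Untreated cells gave another reference, which did not involve the cisplatin library that stood apart in the values compared. Against them, 0 of the 7 genes were called with Tranilast, where 8.1% of all genes were. At an unadjusted p under 0.05 the count was also 0, and the likelihood ratio test, DESeq2 and limma-voom called 0. HSPA8 was 0.38 ± 0.41 and BAG3 0.47 ± 0.26 above untreated cells on the log2 scale (edgeR adjusted p = 0.652 and 0.319). Leaving out both libraries that stood apart, 2 were called, DNAJB1 as higher and HSP90AB1 as lower, where 23.4% of all genes were called. A fit of the 6 libraries of this comparison alone called 4 members, HSPA8, BAG3 and DNAJB1 as higher and HSP90AB1 as lower, where 36.4% of all genes were called. Telmisartan left HSPA8 and BAG3 higher than in untreated cells, by 2.35 ± 0.41 and 0.94 ± 0.26 (edgeR adjusted p = 0.000503 and 0.0131), 2 of 7 where 28.7% of all genes were called. The call for BAG3 was lost without untreated replicate 1, untreated replicate 2 or Telmisartan replicate 1 (edgeR adjusted p from 0.0536 to 0.073). Amphotericin B left HSPA8, HSP90AA1, HSPH1 and BAG3 higher, 4 of 7 where 40.9% of all genes were called. HSPA8 was highest there at 2.996 ± 0.42 (edgeR adjusted p = 7.72e-05), and BAG3 (0.81 ± 0.27, edgeR adjusted p = 0.0253) and HSPH1 (0.57 ± 0.18, edgeR adjusted p = 0.0152) were no longer called without 4 and 2 of the 15 libraries, among them Amphotericin B replicate 1 for both. Without both libraries that stood apart, 6 of 7 were higher with Telmisartan and 6 of 7 with Amphotericin B, HSF1 being the exception in both, where 47.5% and 53.4% of all genes were called. HSP90AB1 was higher with Amphotericin B by 0.61 ± 0.26 (edgeR adjusted p = 0.0707), and by 0.60 without both libraries that stood apart (edgeR adjusted p = 0.000134).

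The drugs were also compared with each other at the matched dose and time, in 3 pairs, and Tranilast differed from Amphotericin B in 4 of the 7 genes, where 36% of all genes were called. Relative to Amphotericin B, HSPA8 was lower with Tranilast by a log2 change of -2.61 ± 0.41, HSP90AB1 by -0.96 ± 0.26, HSP90AA1 by -0.75 ± 0.22 and HSPH1 by -0.61 ± 0.18 (edgeR adjusted p = 0.000974, 0.0106, 0.0139 and 0.0127). Their libraries did not overlap, which describes the values behind the calls and is not separate support. The share of all genes without overlap was not counted. Scaling by library size only kept the call for HSPA8 alone and turned HSPH1 to 0.05, where the median of all genes moved from 0.15 to 0.81. With the share of mitochondrial rRNA as a term, 0 of the 7 were called by edgeR and 2 had an unadjusted p under 0.05, where 0.774% of all genes were called. The calls for HSP90AA1 and HSPH1 were lost without Tranilast replicate 3 or Amphotericin B replicate 1. Between Tranilast and Telmisartan HSPA8 was called (-1.97 ± 0.40, edgeR adjusted p = 0.0412), 1 of 7 where 2.34% of all genes were called, and the call was lost in 11 of the 15 fits with 1 library left out. Without both libraries that stood apart, 4 members were called between Tranilast and Telmisartan, 4 between Tranilast and Amphotericin B and 0 between Telmisartan and Amphotericin B, where 36.6%, 49.4% and 1.15% of all genes were called. Telmisartan and Amphotericin B differed in none of the 7 by edgeR, where 0% of all genes were called. There 0 had an unadjusted p under 0.05, and the likelihood ratio test, DESeq2 and limma-voom called 0. The differences of Telmisartan from Amphotericin B ranged from -0.64 ± 0.38 in HSPA8 to 0.13 ± 0.27 in BAG3, intervals that do not show that these drugs act alike.

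The 7 genes did not move as a unit over the libraries. The level of HSPA8 ran closely with the share of mitochondrial rRNA, with a correlation of its log2 CPM of 0.973 over 15 libraries, and HSP90AA1, HSP90AB1 and HSPH1 followed at 0.923, 0.870 and 0.793. BAG3 and HSF1 had lower values of 0.389 and 0.117, and DNAJB1 had 0.00146. These correlations are descriptions over libraries that share conditions and scaling. Among members, HSPA8 and HSP90AA1 correlated at 0.943 and HSPH1 and HSP90AA1 at 0.923, whereas DNAJB1 correlated at 0.652 with BAG3 and at -0.257 with HSP90AB1. With the share of mitochondrial rRNA as a term in the fit, HSPA8, DNAJB1 and BAG3 were still called higher with cisplatin and HSP90AB1 was called lower. In that fit HSPA8 was at -0.33 with Tranilast and 0.26 with Amphotericin B, neither called (edgeR adjusted p = 0.238 and 0.494), while BAG3 and DNAJB1 were called lower with Tranilast. What the share of mitochondrial rRNA contributes to the level of HSPA8 was not tested beyond this fit.

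**Figure D4:**
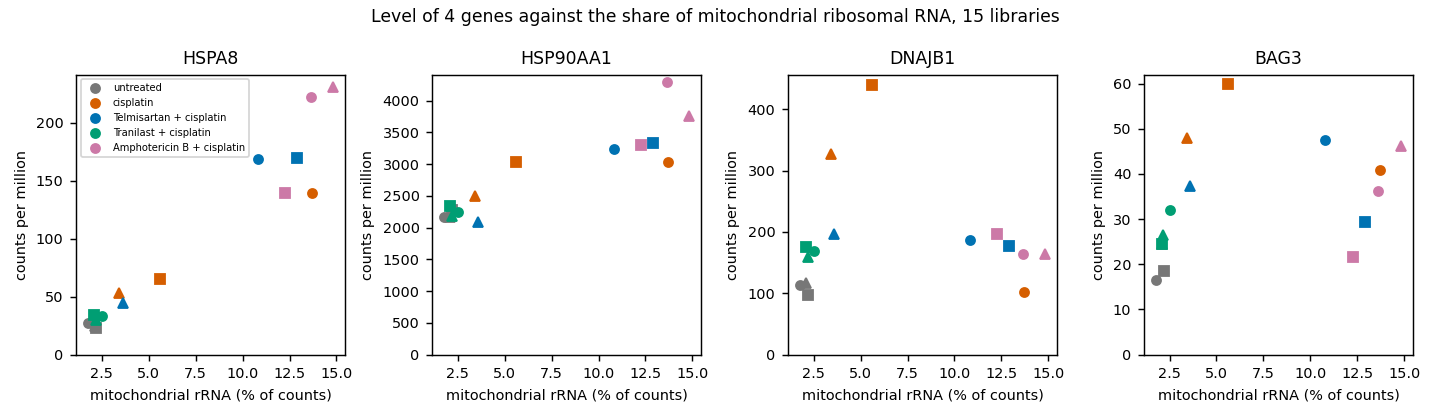
Level of HSPA8, HSP90AA1, DNAJB1 and BAG3 in CPM (vertical axes, from 0) against the percentage of counts on mitochondrial ribosomal RNA (horizontal axes) in 15 libraries, with colors for conditions and circles, squares and triangles for replicates 1, 2 and 3. HSPA8 and HSP90AA1 are high where the percentage is high (correlations of log2 CPM of 0.973 and 0.923), and DNAJB1 is highest at 5.61% and 3.41%, in cisplatin replicates 2 and 3.

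Of 8539 other genes whose mean log2 CPM was 3 or more, those most like HSPA8 over the 15 libraries were RMRP, the RNA of a mitochondrial and nucleolar endonuclease (correlation 0.987), MT-TF, a mitochondrial transfer RNA (0.987), and PRDX6, a peroxiredoxin (0.986). HSP90AA1 ran with EIF3G (0.979), UQCRC1 (0.977) and PSMC5 (0.975), which belong to the translation machinery, the respiratory chain and the proteasome. HSP90AB1 ran with TUFM (0.976), APRT (0.968) and SSBP1 (0.968), and HSPH1 with BZW1 (0.947), MXRA7 (0.946) and MRPL55 (0.943). DNAJB1 was most like TTF1 (0.946), PRPF19 (0.932) and MEPCE (0.921), genes of transcription termination, splicing and 7SK RNA capping. BAG3 was most like H2AFX (0.944), SF3B4 (0.917) and MAD2L1BP (0.915), while HSF1 had weaker partners, RPL39L (0.862), TXNL1 (0.812) and CFD (0.776).

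Among 74 other chaperone genes in 9 lists, 60 passed the filter on low counts, and with cisplatin 25 of them rose and 4 fell, where 44.7% of all genes were called in either direction. In the fit without both libraries that stood apart, 29 of 61 rose and 8 fell, where 55.4% of all genes were called. Of 13 HSP90 co-chaperones 8 rose and none fell, with AHSA1, which activates HSP90's ATPase, from 246 ± 7.39 to 610.1 ± 52.5 CPM (log2 change 1.31, edgeR adjusted p = 4.09e-05) and CACYBP, a bridge to ubiquitin ligases, up by 1.19 (edgeR adjusted p = 0.000213). Of 9 tested HSP40 genes 5 rose, with DNAJB4 at 1.87 and DNAJC9, a histone chaperone, at 1.86. Among 10 BAG, exchange and ubiquitin genes, BAG1 (1.66) and BAG5 (0.94) led 4 that rose, and STUB1, the ubiquitin ligase CHIP, fell by 0.56 on the log2 scale. Prefoldin, which passes actin and tubulin to the chaperonin TRiC, had 3 of 6 subunits higher, led by PFDN5 (1.39) and PFDN2 (1.18), whereas 1 of 8 TRiC subunits was higher, CCT6A (0.52). HSBP1, which binds HSF1, rose by 1.42. Of 3 tested HSP70 and HSP110 genes, HSPA14 rose by 0.70 and HSPA4 fell by 0.77, and of 7 mitochondrial chaperones HSPE1 (1.41) and GRPEL1 (1.29) rose while HSPA9 (-0.91) and DNAJA3 (-0.76) fell. No other small heat shock gene passed the filter. Scaled by library size only, the counts were 15 higher and 9 lower, where the median of all genes was at -0.36.

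With Tranilast, 14 of the 60 were lower than with cisplatin alone and 3 higher, where 22.2% of all genes were called, and without both libraries that stood apart 20 of 61 were lower and 7 higher, where 36.3% were. Lower were 4 of 9 HSP40 genes, led by DNAJB4 (-1.09) and DNAJA1 (-0.84), 3 of 13 HSP90 co-chaperones, among them AHSA1 (-0.83) and CACYBP (-0.77), and 3 of 6 prefoldin subunits, led by PFDN5 (-1.45) and PFDN2 (-1.30). BAG1 (-1.32), HSBP1 (-1.38), HSPE1 (-1.38) and GRPEL1 (-1.16) were lower too, while HSPA4 (0.48), DNAJA3 (0.92) and HSPA9 (0.47) were higher. Scaled by library size only this balance turned, with 11 higher and 6 lower. There the median of the 60 was at 0.20 and that of all genes at 0.46, beside -0.28 and 0.02 with TMM factors. RLE factors gave 1 higher and 16 lower, and upper quartile factors 1 higher and 14 lower. Among these scalings the direction turned only with library size alone, where the median of the 60 was still below that of all genes. With Amphotericin B 6 of 60 were higher and 4 lower than with cisplatin alone, where 13.2% of all genes were called. Leaving out both libraries that stood apart, 21 of 61 were higher and 11 lower, where 43.4% of all genes were called, and with the share of mitochondrial rRNA as a term 1 was higher and 1 lower. UBB (0.97), a polyubiquitin gene, DNAJC7 (0.66), CCT3 (0.70) and TRAP1 (0.85) were among the higher genes, and HSF2 (-1.37), GRPEL2 (-1.41), BAG5 (-1.15) and DNAJB2 (-0.63) were lower. With Telmisartan edgeR called none of the 60, 4 had an unadjusted p under 0.05, and the likelihood ratio test, DESeq2 and limma-voom called none, whereas genes were called without both libraries that stood apart, 15 of 61 higher and 5 lower, where 24.9% of all genes were called.

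**Figure D5:**
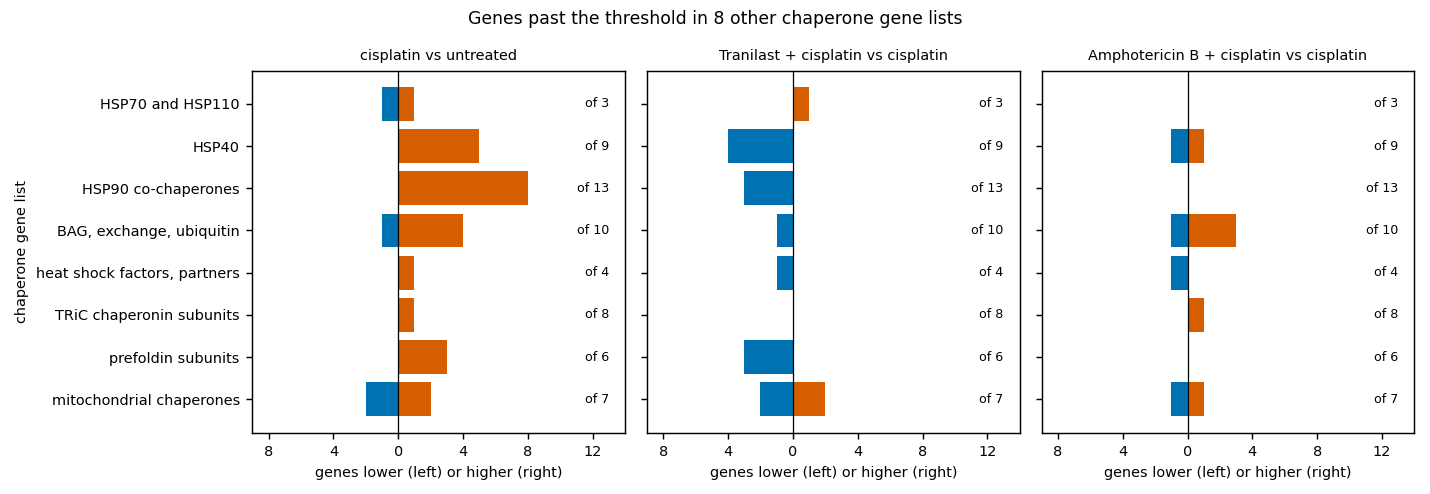
Number of genes past the threshold, lower to the left and higher to the right of 0 (horizontal axes), in 8 lists of other chaperone genes (vertical axis; the number tested stands at the right) for cisplatin over untreated and for Tranilast and Amphotericin B over cisplatin. HSP90 co-chaperones had 8 of 13 genes higher with cisplatin, and 3 of the 13 were lower with Tranilast than with cisplatin alone.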

How the data were processed

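RNA from 15 IGROV-CP20 cultures was sequenced at the 3′ end (QuantSeq). The authors deposited raw counts per Ensembl gene, 1 table per library, not normalized. The submitters' processing notes name STAR 2.3.0, HTSeq and hg19, while the annotation, the use of strand and the treatment of reads with more than 1 match are not given in the sources used here. Gene names and positions came from GENCODE 29 on GRCh38, which held 45776 of the 47634 identifiers. The tables hold no positions.

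The 10 members are a list of names, and the members, the other chaperone lists and the tests were chosen with earlier results of these data known. Named are all members, the 2 genes with the largest rise and the 2 with the largest fall past the threshold in each other list and each main comparison, and the 3 genes most like each member. A gene that this rule takes in is not reported here. Genes were filtered with filterByExpr by condition (11113 kept), scaled with TMM and fitted with a quasi-likelihood model with a term for each condition over all 15 libraries in edgeR 4.0.16 (R 4.3.3). Benjamini-Hochberg adjusted p-values under 0.05 were called. Levels between genes were not compared. Correlations used log2 CPM with a prior count of 2. Standard errors are those of the log2 fold change. Replicates of a condition differed by more than counting error, with a chi-square per degree of freedom of at least 2.24.

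Alternatives were the likelihood ratio test, DESeq2 1.42.0, limma-voom (limma 3.58.1), RLE and upper quartile factors, library size only, filters of CPM above 1 in 3 libraries (14530 genes) and of at least 1 count (24733 genes), the 6 libraries of a comparison alone, the replicate number as a block, the share of mitochondrial rRNA as a term, a threshold of 0.01 and each library left out in turn. Leaving out both libraries that stood apart was added after the data had been seen. The model was tested on simulated data for Tranilast against cisplatin. It found 42 of 100 genes changed by a log2 of 1 and 78 of 100 changed by 1.5. It also called 6 unchanged genes there, and 0 genes in a comparison without changes. The simulated libraries were independent draws around the cisplatin means, with fewer changed genes and no libraries that stood apart. These rates may therefore differ from those in the real data. A member that was not called is therefore not shown to be unchanged. Tables were summarised in Python 3.11.15 (pandas 2.3.3, with numpy 2.4.6 and scipy 1.17.1) and plotted with matplotlib 3.10.9. All columns of the tables were used.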

Additional observations from a re-analysis of the deposited data

How the results depend on the processing

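Of 1260 values of the 45 single-gene results under alternatives, 1101 kept their direction and their side of the threshold, 77 lost the call, 67 gained it and 15 turned in direction. The calls of HSPA8, DNAJB1 and BAG3 with cisplatin held under all 28 alternatives. At a threshold of 0.01 the number of members called was 0 for Tranilast and 0 for Amphotericin B against cisplatin, 1 for Telmisartan and 2 for Amphotericin B against untreated cells, and 0 and 1 for Tranilast against Telmisartan and Amphotericin B. Scaled by library size only these 6 numbers were 0, 2, 1, 1, 0 and 1, and the median log2 change of all genes moved to between -0.75 and 0.81. In that order, all genes then gave 2582 higher and 397 lower, 242 and 850, and 627 and 2053. For the rest they gave 887 and 4804, 0 and 1, and 5313 and 763. In the same 6 comparisons the share of mitochondrial rRNA as a term left the first at 2 and gave 0, 4, 2, 0 and 0 for the others, and 2 for Tranilast against untreated cells. Over all genes the first 5 had 1383 higher and 1528 lower, 158 and 380, 1869 and 1973, 875 and 1283, and 287 and 102. Tranilast against untreated cells had 998 and 1469. Without both libraries that stood apart, 5 were called for cisplatin against untreated cells, 4, 3 and 5 for Tranilast, Telmisartan and Amphotericin B against cisplatin, 2 and 6 for Tranilast and Telmisartan against untreated cells, and 4 for Tranilast against Telmisartan. For Amphotericin B against cisplatin the likelihood ratio test, DESeq2 and the filter of at least 1 count called 2, and the filter of CPM above 1 and the 6 libraries alone called 0. Over all genes the former called 779 higher and 1382 lower, 755 and 1057, and 622 and 1316. The latter called 421 and 994, and 23 and 66. The filter of at least 1 count called 2 for Amphotericin B against untreated cells, where 1953 genes were higher and 3002 lower. The 6 libraries alone called 4 for Tranilast against untreated cells and 0 for Tranilast against Telmisartan, where limma-voom also called 0. Over all genes the 6 libraries alone called 1869 higher and 2119 lower, and 0 and 0, and limma-voom called 1 and 6. Calls over all 11113 genes moved as well, so these numbers are not traits of the members. Against cisplatin at 0.01, Tranilast had 407 genes higher and 491 lower, and Amphotericin B had 52 higher and 241 lower. Against untreated cells at 0.01, Telmisartan had 649 and 944, and Amphotericin B 1277 and 1541. Tranilast at 0.01 had 0 and 0 against Telmisartan, and 902 and 1053 against Amphotericin B. With the share of mitochondrial rRNA as a term, 0.774% of all genes were called for Tranilast against Amphotericin B. The cause of these changes was not tested, apart from those that follow from fewer samples or a stricter threshold.

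With 1 library left out, members called ranged from 3 to 4 for cisplatin against untreated cells, from 0 to 3, 0 to 1 and 0 to 3 for Tranilast, Telmisartan and Amphotericin B against cisplatin, from 0 to 1, 1 to 4 and 2 to 6 for the same drugs against untreated cells, from 0 to 4 and 2 to 4 for Tranilast against Telmisartan and Amphotericin B, and from 0 to 0 for Telmisartan against Amphotericin B. Calls over all genes moved in these fits too. For cisplatin against untreated cells they went from 1693 higher and 1914 lower without cisplatin replicate 2 to 2664 and 2923 without Telmisartan replicate 3. Against untreated cells Tranilast had 88 and 201 without its replicate 1, and 566 and 1035 without cisplatin replicate 1. Telmisartan had 779 and 1203 without untreated replicate 3, and 1874 and 2308 without its own replicate 3. Amphotericin B had 1548 and 2006 without its replicate 1, and 2285 and 2945 without cisplatin replicate 1. For Telmisartan against cisplatin they were 301 higher and 244 lower without cisplatin replicate 1, beside 0 and 0 with all libraries. Uncalled log2 changes that turned in direction were those of HSPH1 with Telmisartan (from -0.157 to 0.0155) and with Amphotericin B (from -0.0278 to 0.252) over cisplatin, HSP90AA1 with Telmisartan (from -0.0968 to 0.204) and HSP90AB1 with cisplatin over untreated cells (from -0.321 to 0.0505). Scaled by library size only, HSPH1 was at -0.0793 with Amphotericin B over cisplatin and at 0.0523 with Tranilast over Amphotericin B, HSP90AA1 at 0.13 and HSP90AB1 at 0.24 with Tranilast over cisplatin. With the share of mitochondrial rRNA as a term, DNAJB1 was at 0.0305 with Amphotericin B and HSP90AA1 at -0.0829 with Telmisartan over cisplatin, and HSP90AB1 at 0.20 with Tranilast over cisplatin and -0.33 with Amphotericin B over untreated cells.

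Equal replicate numbers did not pair the libraries, since in no comparison did the deviations of all 3 same-numbered pairs correlate at over 0.1. Every library correlated best with its own number only in Telmisartan against untreated cells (0.0964, 0.0349 and 0.0941), a hint from the data and not from the design. With the replicate block, 4 members were called for cisplatin against untreated cells, HSPH1 being added (log2 change 0.43, edgeR adjusted p = 0.0489), and no other call of a member changed. The sum of HSPA1A and HSPA1B gave no value, since both were at 0. Levels of HSPB1, with 2 to 13 counts, were limited by depth.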
